A study of Lupinus albus with 12 samples.

Results

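Glutathione transferases form one of the large enzyme families of plant roots, and 48 of the 33388 genes in the deposited white lupin (Lupinus albus) table belong to it here, chosen because their protein name contains "glutathione transferase" or "glutathione S-transferase". These enzymes join glutathione, a small sulfur-containing peptide, to reactive or toxic molecules, and the products are then carried into the vacuole by membrane pumps. Some members also use glutathione to reduce peroxides, and in other plants many are known for their response to herbicides, hormones and oxidative stress. The genes often lie side by side on a chromosome, and the plant classes named Tau and Phi are usually the most numerous.

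The study asked how lupin roots respond to sucrose as a signal. Wild-type plants of the cultivar Amiga were grown in hydroponic Hoagland solution, and sucrose was added to a final 10 mM. Root sections of 4 to 5 cm that included the tips were taken from untreated plants at 0 min, the control, and from treated plants after 20, 40 and 80 min. Each of the 4 groups held 3 plants and each of the 12 libraries was made from 1 plant, so replicates were separate plants and no group carried a mutation or transgene. Control plants were taken at 0 min alone, so the length of exposure to sucrose and the time since handling cannot be told apart.

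Library totals ran from 35050877 reads (20 min, replicate 2) to 105299704 reads (80 min, replicate 2). All 4 genes named for the root cap and 27 of 43 named CASP-like had a mean of at least 1 FPKM, the deposited level in fragments scaled by transcript length and library size. CASP-like proteins are a broad membrane family that includes the Casparian strip proteins of the endodermis, so they mark that tissue only in part. Genes of green tissue were also present, at a summed 118.5 to 732.8 FPKM over 39 genes. In earlier work on these data 20 min replicate 2 and 80 min replicate 3 stood apart from their groups, so tests are given with all 12 libraries and without those 2. The 2 were thus picked from the same data, and leaving them out narrows the spread within their groups. Adjusted p-values without them describe how a result depends on those plants and are not independent support for it. The root sections were bulk samples, in which fewer cells of a type and less RNA per cell cannot be told apart. Reads carried no molecular identifiers, so read counts are not counts of separate molecules.

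Of the 48 genes, 36 had a mean of at least 1 FPKM over the 12 libraries, 22 at least 10 and 4 at least 100. The 36 genes above 1 FPKM were detected in every library. After the filter on low counts 39 genes were tested. The other 9 held 4 to 57 reads each over all 12 libraries together, and their deposited proteins were 62 to 219 residues long. The deposited annotation named the class for only some of the genes. It placed 25 in the glutathione transferase superfamily with no class, 5 in the Phi class, 1 each in the Zeta and Theta classes, 2 among small membrane proteins and 2 under an S-crystallin name, and gave no family for 12. The 25 genes without a class made up 71.3% of the summed mean FPKM, the Phi genes 3.93% and the membrane pair 6.55%.

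A single gene led the family. Lalb_Chr16g0392551, which encodes a soluble transferase of 231 residues, had a mean of 584 FPKM, rank 31 among all 33388 genes, and 33.4% of the family's summed level. Its level was 630, 587 and 798 FPKM in the 3 controls, 333, 331 and 416 at 20 min, 697, 736 and 931 at 40 min, then 443, 554 and 558 at 80 min. In FPKM all 3 plants at 20 min lay below every plant of the other 3 groups. In CPM, the read counts scaled by library size with edgeR's TMM factors, they lay below all controls and all plants at 40 min, but replicate 3 at 20 min (893) stood above replicate 1 at 80 min (835). The second gene, Lalb_Chr25g0289321, had no family in the annotation and stood at 175, 173 and 200 FPKM in the controls, 184, 167 and 170 at 20 min, 143, 240 and 139 at 40 min, then 73.1, 83.6 and 216 at 80 min. Here the controls and the plants at 20 min were close together, while 2 of the 3 plants at 80 min lay below all others.

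The third gene, Lalb_Chr03g0042741, varied widely within the controls. It stood at 675, 217 and 17.2 FPKM in the 3 untreated plants, a ratio of 39.3 between the highest and the lowest, and at 146, 128 and 92.3 FPKM at 20 min, 24.8, 25.6 and 99.2 at 40 min, then 26.0, 151 and 150 at 80 min. The control range covered the whole range of the treated plants. Lalb_Chr15g0081631, the most abundant Phi gene, also had an untreated plant far below the other two, with 44.4, 33.4 and 2.61 FPKM in the controls against 28.6 to 83.1 FPKM in the 9 treated plants. The plant with the low value was replicate 3 for both genes.

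Of the smaller classes, the Zeta gene Lalb_Chr21g0314441 was the most abundant after the membrane transferase Lalb_Chr10g0104001. Zeta enzymes isomerise maleylacetoacetate in the breakdown of tyrosine and phenylalanine. It stood at 54.9, 51.2 and 70.5 FPKM in the controls, 61.4, 57.9 and 62.2 at 20 min, 51.0, 82.1 and 48.3 at 40 min, then 32.1, 42.8 and 76.6 at 80 min, and each treated group overlapped the controls. The Theta gene Lalb_Chr09g0333351 was low, with a mean of 3.54 FPKM, and 2 plants held more than the rest, a control at 11.4 FPKM and a plant at 20 min at 9.38 FPKM.

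**Figure D1:**
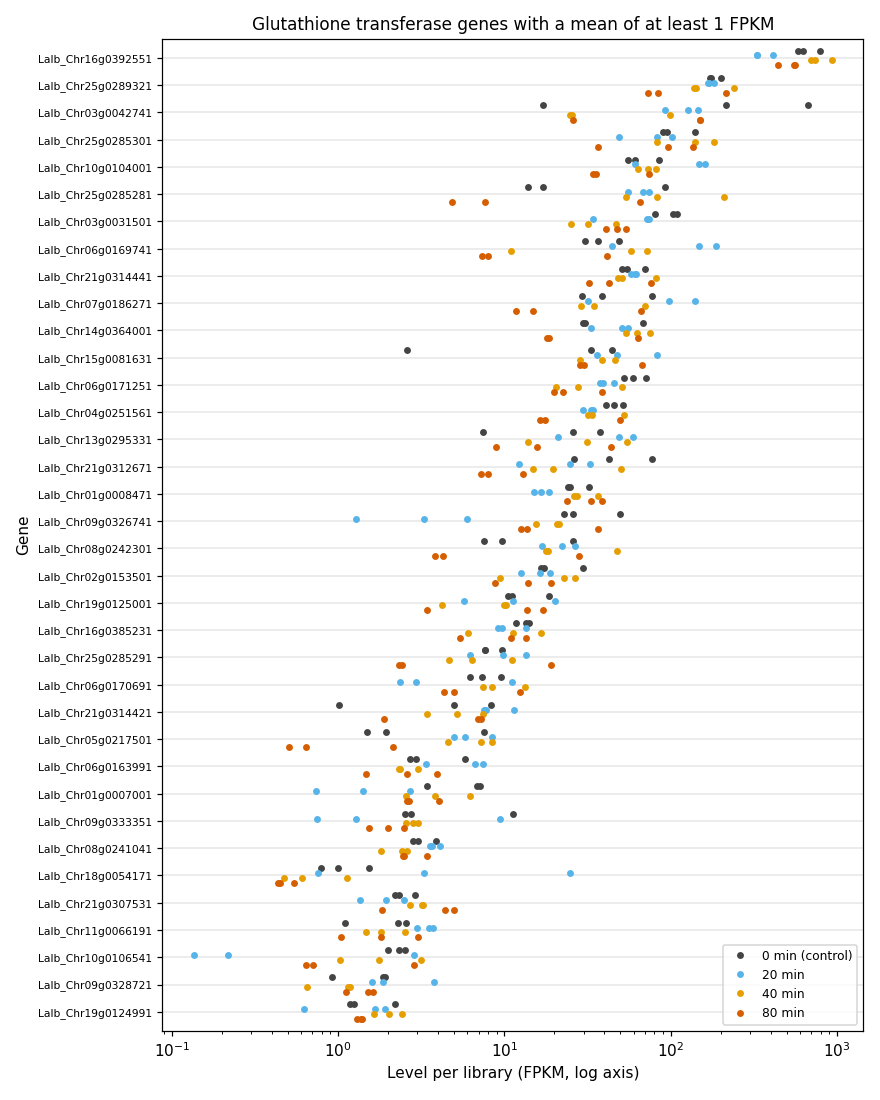
Level in FPKM (log axis) of the 36 glutathione transferase genes with a mean of at least 1 FPKM, with the most abundant at the top. Each point is 1 plant and the colour gives the time in sucrose. Lalb_Chr16g0392551 lies apart from the rest at 331 to 931 FPKM, and Lalb_Chr03g0042741 has control points from 17.2 to 675 FPKM.

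Members with neighbouring loci did not share one level. By the gene order of the assembly CNRS_Lalb_1.0, 17 members lay in 7 groups of adjacent members, 1 group of 4, 1 of 3 and 5 pairs. In the group of 3, Lalb_Chr25g0285301 had a mean of 103 FPKM, Lalb_Chr25g0285281 62.1 FPKM and Lalb_Chr25g0285291 8.37 FPKM. The group of 4, from Lalb_Chr19g0133521 to Lalb_Chr19g0133551, was almost silent. Its most abundant gene, Lalb_Chr19g0133521, held 0, 0 and 273 reads in the controls, 0, 0 and 6 at 20 min, 0, 263 and 55 at 40 min, then 0 in all 3 plants at 80 min. It was seen in 4 of the 12 plants. Its neighbours Lalb_Chr19g0133531 and Lalb_Chr19g0133541 held 16 and 17 reads over all libraries. Reads of near-identical neighbours can be split between them, and how such reads were counted is not given in the sources used here, so values of single genes in these groups are uncertain to that extent.

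Summed over the 48 genes, the level was 2226, 1788 and 2119 FPKM in the controls, 1786, 1329 and 1836 at 20 min, 1512, 2182 and 2087 at 40 min, then 932, 1362 and 1813 at 80 min. The means were 2044 ± 228 FPKM (SD, n = 3) in the controls, 1650 ± 279 at 20 min, 1927 ± 363 at 40 min and 1369 ± 441 at 80 min. The lowest control (1788) lay inside the range of each treated group, so every treated group overlapped the controls. The share of Lalb_Chr16g0392551 in the sum ran from 28.3% to 37.6% in the controls, 18.6% to 24.9% at 20 min, 33.7% to 46.1% at 40 min and 30.8% to 47.5% at 80 min. Its share at 20 min lay below that in every other plant.

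**Figure D2:**
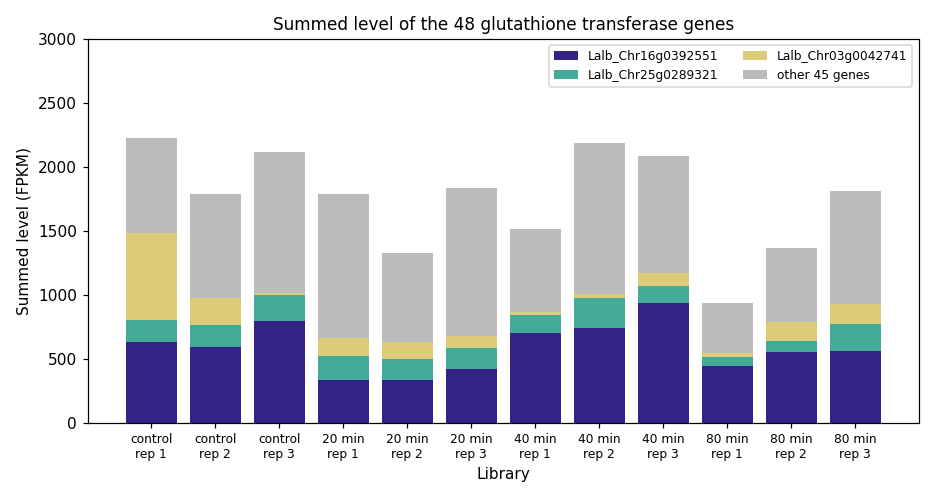
Summed level (FPKM) of the 48 glutathione transferase genes in each of the 12 libraries, stacked by the 3 most abundant genes and the other 45. The bar of 80 min replicate 1 is the lowest at 932 FPKM, and the segment of Lalb_Chr03g0042741 is large in control replicate 1 (675 FPKM) and barely visible in control replicate 3 (17.2 FPKM).

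After 80 min most members had a log2 fold change against control below 0, though few had all 3 plants below the controls. Over the 39 genes tested, the log2 fold change against control had a median of -0.03 at 20 min, -0.19 at 40 min and -0.58 at 80 min, against medians of 0.07, 0.08 and 0.12 over all 28980 genes tested. At 80 min 35 of the 39 genes (89.7%) had a log2 fold change below 0, against 42.3% of all genes. Replicates 1 and 2 at 80 min carried most of it. Of the 36 genes above 1 FPKM, 27 (75.0%) lay below all 3 controls in replicate 1, 23 (63.9%) in replicate 2 and 11 (30.6%) in replicate 3. Of all genes with the same minimum, 34.3%, 32.7% and 35.2% did so in those plants. At 40 min it was 21 (58.3%, against 29.1%) in replicate 1, 9 (25.0%, against 30.7%) in replicate 2 and 14 (38.9%, against 28.3%) in replicate 3. In all 3 plants at 80 min, 6 of the 39 (15.4%) lay below all controls, against 9.05% of all genes. The median at 80 min was -1.01 without 80 min replicate 3, and between -0.42 and -0.66 without any single other library. No test was made on the family as a set. Some marker genes also differed from the controls, at 80 min and at the earlier times. The 29 genes named for phloem proteins summed to 138, 143 and 164 FPKM at 80 min, against 195 to 221 in the controls, and lay below all controls in the other 6 treated plants too. The 43 CASP-like genes summed to 209, 222 and 399 FPKM at 80 min against 224 to 382, with replicate 3 the highest, as in most of the transferases. The 4 root cap genes summed to 67.1, 33.7 and 37.4 FPKM at 80 min, against 62.8 to 133.5 in the controls. Their sums were 25.6, 49.8 and 27.0 at 20 min and 56.7, 59.0 and 62.9 at 40 min. The part of these tissues in the transferase values was not tested.

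With all 12 libraries, edgeR called 0 of the 39 genes at an adjusted p below 0.05 in each comparison with control, where it called 0.0242% of all genes at 20 min, 0.0897% at 40 min and 0.0104% at 80 min. At an unadjusted p below 0.05 it found 7 genes at 20 min (2 higher and 5 lower), 4 at 40 min and 5 at 80 min, the last 9 all lower. These were 17.9%, 10.3% and 12.8% of the members, against 12.6%, 5.99% and 9.91% of all genes. By direction, 7.32% of all genes were higher and 5.28% lower at 20 min, 3.92% were lower at 40 min and 5.45% at 80 min. DESeq2, the second count test, called 4, 1 and 4 members (10.0%, 2.5% and 10.8%), against 4.09%, 1.93% and 2.97% of all genes. The authors' deposited table gave the same 3 counts. Without 20 min replicate 2 and 80 min replicate 3, edgeR called 6, 1 and 5 of 41 members (14.6%, 2.44% and 12.2%). The shares of all genes were 8.16%, 0.846% and 5.54%. The 5 members called at 80 min (12.2%) were all lower, against 4.12% of all genes called lower.

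After 20 min the smallest p-values were those of soluble transferases with no class. Lalb_Chr09g0326741 stood at 23.0, 25.9 and 49.9 FPKM in the controls and at 1.28, 5.95 and 3.31 FPKM at 20 min. It then stood at 15.4, 21.2 and 20.8 FPKM at 40 min and 12.6, 36.8 and 13.6 FPKM at 80 min. The plants at 20 min lay below all 9 others, and those at 80 min overlapped the controls. Its log2 fold change at 20 min was -3.12 (SE 0.62; edgeR adjusted p = 0.162), and it was called by DESeq2 (adjusted p = 5.37e-05) and by edgeR without the 2 libraries (log2 fold change -3.83, adjusted p = 0.0158).

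Lalb_Chr16g0392551, the gene that leads the family, had a log2 fold change of -0.80 (SE 0.22) at 20 min, from 671 ± 111 to 360 ± 48.3 FPKM (SD, n = 3). The edgeR adjusted p was 0.238 with all libraries and 0.0553 without the 2, and that of DESeq2 was 0.00299. Lalb_Chr01g0007001 stood at 7.16, 3.44 and 6.82 FPKM in the controls and 0.740, 2.71 and 1.42 FPKM at 20 min, with no overlap (log2 fold change -1.72, SE 0.51; edgeR adjusted p = 0.260, DESeq2 adjusted p = 0.0329). It was also called by edgeR without the 2 libraries (log2 fold change -2.405, adjusted p = 0.0268). The Phi gene Lalb_Chr01g0008471 stood at 24.2, 24.7 and 32.3 FPKM in the controls and 16.6, 18.5 and 15.0 at 20 min, also with no overlap, and no test called it (log2 fold change -0.59, SE 0.23; edgeR adjusted p = 0.338).

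In TMM-scaled CPM 8 members (20.5%) had groups that did not overlap at 20 min, against 21.6% of all genes. Of these members 2 (5.13%) were higher, Lalb_Chr06g0169741 and Lalb_Chr11g0066191, and 6 (15.4%) lower. Of all genes 10.8% were higher and 10.8% lower. In 3 abundant members with higher means, replicates 1 and 3 were set apart from replicate 2. Lalb_Chr10g0104001, a membrane transferase of 150 residues, stood at 61.1, 55.8 and 85.1 FPKM in the controls and at 149, 60.8 and 161 FPKM at 20 min. Lalb_Chr06g0169741, a soluble transferase, stood at 30.4, 36.7 and 49.0 FPKM in the controls and at 189, 44.2 and 148 FPKM at 20 min. Lalb_Chr07g0186271, a soluble transferase of 228 residues, stood at 29.3, 38.5 and 77.2 FPKM in the controls and at 98.3, 31.8 and 141 FPKM at 20 min. For all 3 genes, replicate 2 lay within the control range in FPKM and replicates 1 and 3 lay above it.

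The log2 fold change of Lalb_Chr10g0104001 at 20 min was 0.97 (SE 0.39; edgeR adjusted p = 0.354), and 1.21 without the 2 libraries, when it was called (adjusted p = 0.0108). That of Lalb_Chr06g0169741 was 1.81 (SE 0.84; edgeR adjusted p = 0.410), and 2.12 without them (adjusted p = 0.0777). The same plants were set apart in other genes. The gene named alcohol dehydrogenase 1, whose enzyme works in fermentation at low oxygen, stood at 7675, 287 and 5161 FPKM at 20 min against 650.0 to 1266 in the controls. The 6 genes named hypoxia induced protein summed to 1269, 31.8 and 687 FPKM against 242 to 413. The low-oxygen marker non-symbiotic hemoglobin 1 went the other way, at 86.3, 86.1 and 146 FPKM, below all controls (190 to 311). The 39 genes of green tissue summed to 733, 146 and 431 FPKM against 187 to 243. Their part in the values of these 3 transferases was not tested.

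A low gene was higher in 2 of the 3 plants at 20 min. Lalb_Chr18g0054171, a soluble transferase, stood at 0.791, 1.54 and 0.999 FPKM in the controls and at 3.28, 0.761 and 25.0 FPKM at 20 min, so that replicate 3 alone set most of the mean. Replicate 2 at 20 min lay just below the controls in FPKM. In TMM-scaled CPM it lay within their range, at 1.246 against 1.165 in control replicate 1. At 80 min it stood at 0.447, 0.540 and 0.438 FPKM. Its log2 fold change at 20 min was 3.17 (SE 1.01; edgeR adjusted p = 0.272), and it was called higher by DESeq2 (adjusted p = 0.0209) and by edgeR without the 2 libraries (adjusted p = 0.0317). The other 2 members called lower without those libraries were the Phi gene Lalb_Chr10g0106541 (log2 fold change -3.64, adjusted p = 0.0133), at 0.218, 2.87 and 0.137 FPKM at 20 min against 1.99 to 2.53 in the controls, and Lalb_Chr06g0170691 of the S-crystallin name (-1.52, adjusted p = 0.0240), at 2.37, 11.1 and 2.96 FPKM against 6.21 to 9.51. In both, the library left out was the one that stood above the controls, and with it their log2 fold changes were -0.97 and -0.38.

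After 40 min DESeq2 called a single member. Lalb_Chr03g0031501, a soluble transferase of 219 residues whose neighbour Lalb_Chr03g0031491 held 4 reads in all, stood at 110, 103 and 80.9 FPKM in the controls, 74.1, 34.1 and 72.6 at 20 min, 25.1, 32.0 and 46.9 at 40 min, then 47.8, 54.2 and 40.7 at 80 min. Every treated plant lay below every control in FPKM. In TMM-scaled CPM replicate 1 at 20 min (183.7) stood just above control replicate 3 (182.1), so those groups overlapped. The log2 fold change was -0.61 (SE 0.32) at 20 min, -1.63 (SE 0.33) at 40 min and -1.14 (SE 0.33) at 80 min. At 40 min the edgeR adjusted p was 0.165 with all libraries and 0.0335 without the 2, and that of DESeq2 was 0.000521.

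Lalb_Chr06g0171251, a transferase of 235 residues with no family given, also stood below the controls at each time. Its level was 52.5, 59.6 and 71.2 FPKM in the controls, 39.4, 37.5 and 45.8 at 20 min, 27.9, 20.5 and 51.0 at 40 min, then 20.0, 22.5 and 38.5 at 80 min. No treated plant reached the lowest control. The log2 fold changes were -0.48 (SE 0.34), -1.02 (SE 0.34) and -1.28 (SE 0.34), and at 80 min it was called by DESeq2 (adjusted p = 0.0245) and by edgeR without the 2 libraries (adjusted p = 0.0443), while the edgeR adjusted p with all libraries was 0.318. At 40 min 6 members (15.4%) had groups that did not overlap, all lower, against 15.3% of all genes (8.35% lower). At 80 min there were again 6 (15.4%), all lower, against 17.7% (9.05% lower). None of the 39 members tested lay above all controls in all 3 plants at 40 or at 80 min.

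At 80 min the largest difference among the genes above 1 FPKM that DESeq2 called was in Lalb_Chr21g0312671, a soluble transferase of 217 residues. It stood at 26.5, 76.8 and 42.9 FPKM in the controls, 33.0, 12.2 and 25.0 at 20 min, 19.7, 14.8 and 50.2 at 40 min, then 7.94, 13.0 and 7.23 at 80 min. The plants at 80 min lay below every control and every plant at 40 min. Against control it came to a log2 fold change of -2.49 (SE 0.59; edgeR adjusted p = 0.270, DESeq2 adjusted p = 0.00203). It did not share the pattern of most members at 80 min, since replicate 3 was as low as replicate 1, and without the 2 libraries it was not called (edgeR adjusted p = 0.0809).

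The other 2 members that DESeq2 called at 80 min were Lalb_Chr03g0031501 (log2 fold change -1.14, DESeq2 adjusted p = 0.0436) and Lalb_Chr19g0133521, the gene with 0, 0 and 273 control reads, whose call rests on 1 control plant. Leaving out 20 min replicate 2 and 80 min replicate 3, edgeR called 4 members beside Lalb_Chr06g0171251, all lower at 80 min. They were the membrane transferases Lalb_Chr04g0251561 (log2 fold change -1.54, adjusted p = 0.0179) and Lalb_Chr10g0104001 (-1.04, adjusted p = 0.0260), the second most abundant gene Lalb_Chr25g0289321 (-1.33, adjusted p = 0.0318), and Lalb_Chr25g0285291 of the group of 3 neighbours. With all libraries the first 3 had log2 fold changes of -0.82, -0.58 and -0.65.

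Lalb_Chr04g0251561 shows what replicate 3 at 80 min contributed. It stood at 45.9, 41.1 and 51.9 FPKM in the controls and at 16.5, 17.6 and 49.9 FPKM at 80 min, so that replicates 1 and 2 lay below every control and replicate 3 among them. The neighbours Lalb_Chr25g0285281 and Lalb_Chr25g0285291 had the same order, with 4.87, 7.65 and 65.3 FPKM and 2.33, 2.43 and 19.0 FPKM at 80 min. In Lalb_Chr06g0169741 replicate 3 was also the highest, with 8.01, 7.39 and 41.4 FPKM. In 21 of the 36 genes above 1 FPKM (58.3%) replicate 3 was the highest of the 3 plants at 80 min, against 44.5% of all genes. In 25 (69.4%) replicate 1 was the lowest, against 32.6%. The controls had the same extremes, with replicate 3 highest in 23 (63.9%, against 37.7%) and replicate 1 lowest in 25 (69.4%, against 34.0%). At 40 min replicate 2 was highest in 21 (58.3%, against 37.3%) and replicate 1 lowest in 23 (63.9%, against 31.5%). At 20 min replicate 1 was highest in 14 (38.9%, against 31.6%) and replicate 2 lowest in 17 (47.2%, against 43.8%).

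**Figure D3:**
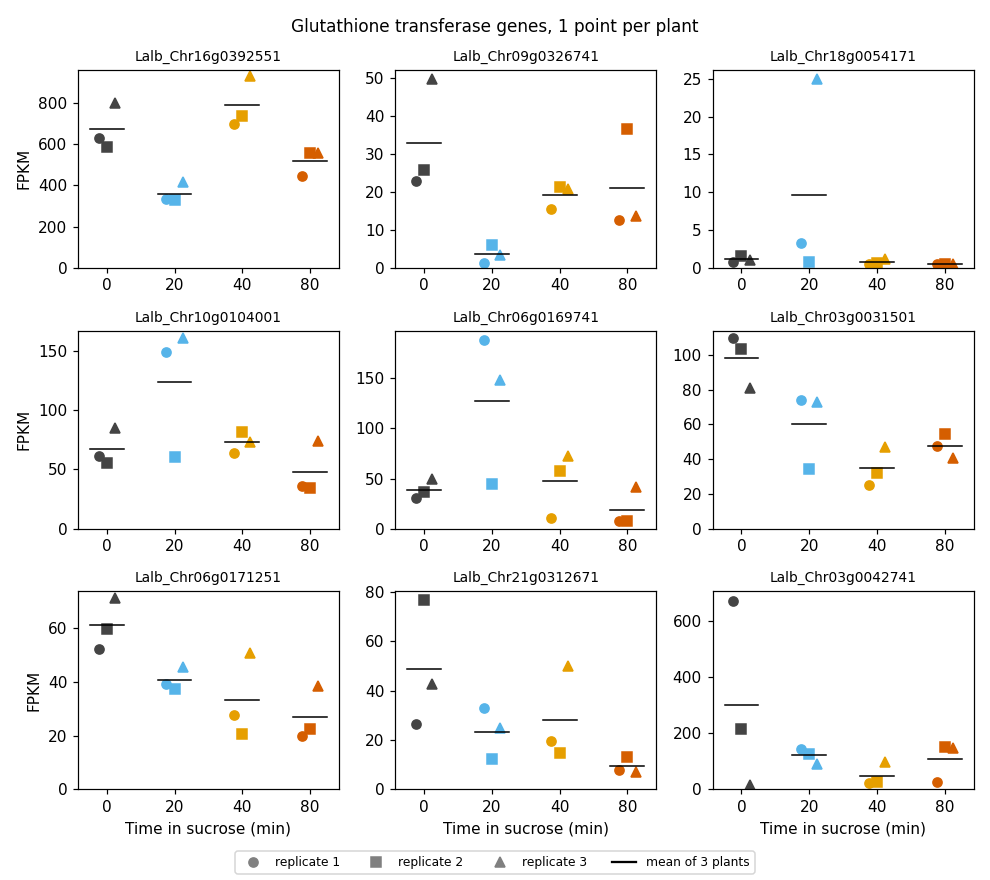
Level (FPKM, linear axis from 0) of 9 glutathione transferase genes by time in sucrose (min). Each marker is 1 plant, its shape gives the replicate number and the line is the mean of 3 plants. Lalb_Chr16g0392551 and Lalb_Chr09g0326741 are lowest at 20 min, Lalb_Chr10g0104001 and Lalb_Chr06g0169741 are high in replicates 1 and 3 at 20 min, and Lalb_Chr03g0031501 and Lalb_Chr06g0171251 lie below the controls at all 3 times.

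Between sucrose times edgeR again called 0 members in the comparisons of 40 with 20 min, 80 with 20 min and 80 with 40 min. It called 0.0% of all genes in each. The control plants are not compared here, but they entered the shared fit and its estimate of the spread. At an unadjusted p below 0.05 edgeR found 12, 12 and 4 members (30.8%, 30.8% and 10.3%), against 14.2%, 17.3% and 4.51% of all genes. DESeq2 called 6, 6 and 2 (16.2%, 16.2% and 5.41%), against 4.99%, 7.15% and 0.86%. Groups did not overlap for 9, 13 and 4 members (23.1%, 33.3% and 10.3%), against 18.5%, 15.8% and 9.42% of all genes. Without the 2 libraries edgeR called 10, 14 and 3 members (24.4%, 34.1% and 7.32%), against 10.7%, 17.8% and 2.27% of all genes.

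From 20 to 40 min 2 of the genes that had been lower than the controls at 20 min were higher again. Lalb_Chr16g0392551 had a log2 fold change of 0.91 (SE 0.22; edgeR adjusted p = 0.214, DESeq2 adjusted p = 0.000878), and all 3 plants at 40 min lay above all 3 at 20 min. Lalb_Chr09g0326741 had a log2 fold change of 2.22 (SE 0.60; edgeR adjusted p = 0.227, DESeq2 adjusted p = 0.0116), also without overlap. From 40 to 80 min Lalb_Chr16g0392551 was lower by a log2 fold change of -0.57 (SE 0.22), and neither edgeR (adjusted p = 1.0) nor DESeq2 (adjusted p = 0.218) called it.

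Lalb_Chr05g0217501, a low soluble transferase, differed at 80 min from both earlier sucrose times. It stood at 1.50, 1.95 and 7.53 FPKM in the controls, 8.40, 5.00 and 5.81 at 20 min, 4.57, 8.40 and 7.27 at 40 min, then 0.510, 0.644 and 2.14 at 80 min. The plants at 80 min lay below all those at 20 and 40 min and overlapped the controls. The log2 fold change came to -2.74 (SE 0.72; edgeR adjusted p = 0.161, DESeq2 adjusted p = 0.00387) from 20 to 80 min and -2.59 (SE 0.72; edgeR adjusted p = 0.881, DESeq2 adjusted p = 0.0234) from 40 to 80 min. Lalb_Chr06g0169741 was also lower at 80 than at 20 min, by a log2 fold change of -2.94 (SE 0.88; edgeR adjusted p = 0.178, DESeq2 adjusted p = 0.00976).

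In the F test over the 4 time points edgeR called 0 members, against 0.0725% of all genes. At an unadjusted p below 0.05 it found 13 members (33.3%), against 13.4% of all genes. DESeq2 called 10 (27.0%), against 8.02%, and edgeR without the 2 libraries called 15 (36.6%), against 15.2%. The members with the smallest p in edgeR were Lalb_Chr18g0054171 (adjusted p = 0.177), Lalb_Chr03g0031501 (adjusted p = 0.198) and Lalb_Chr09g0326741 (adjusted p = 0.212). In these 3 genes the extreme group was 20 min, 40 min and 20 min.

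**Figure D4:**
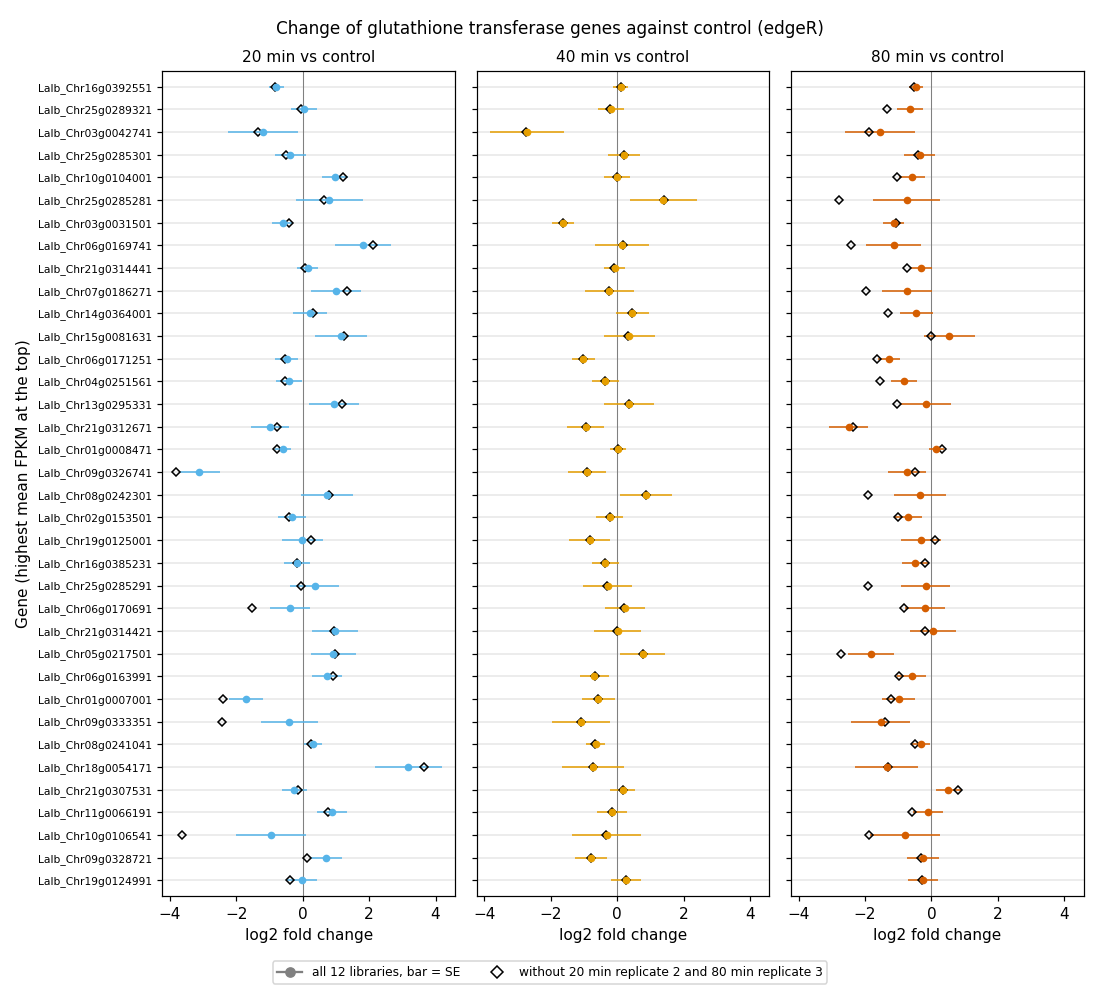
Log2 fold change against control at 20, 40 and 80 min (edgeR) for the 36 glutathione transferase genes with a mean of at least 1 FPKM. Filled points use all 12 libraries with bars for the SE, and open diamonds leave out 20 min replicate 2 and 80 min replicate 3. At 80 min most points lie left of 0 and many diamonds lie further left, such as Lalb_Chr25g0285281, at -0.75 with all libraries and -2.77 without the 2.

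The spread between plants of a group was described by the ratio of the highest to the lowest plant, with no test. Among the 36 genes above 1 FPKM this ratio had a median of 1.84 in the controls, 2.13 at 20 min, 1.85 at 40 min and 2.8 at 80 min, against 1.45, 1.76, 1.62 and 1.91 over the 20926 genes of all kinds with the same minimum. The ratio exceeded 2 for 16, 19, 17 and 25 members in the 4 groups. Single plants stood out. Over the 39 genes tested, 80 min replicate 1 was the lowest of all 12 libraries for 14 (35.9%), against 11.5% of all genes. The highest was 40 min replicate 2 for 8 (20.5%), against 6.35%.

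The genes around glutathione were described through 8 lists of 195 genes found by their protein names, of which 173 were tested. By edgeR 0 of them were called at any time. At an unadjusted p below 0.05 the counts were 26, 8 and 17 at 20, 40 and 80 min, or 15.0%, 4.62% and 9.83%, near the 12.6%, 5.99% and 9.91% of all genes. DESeq2 called 11 (5 higher and 6 lower), 2 and 5, or 6.25%, 1.14% and 2.91%, against 4.09%, 1.93% and 2.97%. The median log2 fold change over these genes was -0.04, 0.04 and -0.09 at the 3 times, against -0.58 for the transferases at 80 min. Without the 2 libraries the median at 80 min was -0.28 for the lists, -1.001 for the transferases and -0.003 for all genes. Several lists depended on those libraries at 80 min. Glutaredoxins, which use glutathione to reduce protein thiols, had a median of 0.34 over 6 genes with all libraries and -0.46 over 7 without the 2. The genes named as xenobiotic ABC transporters, a type that includes the pumps of glutathione conjugates into the vacuole, had 0.01 over 53 genes and -0.37 over 56. Glutathione reductases and peroxidases had -0.28 and -0.48 over 16.

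At 20 min the sum of the ascorbate peroxidases and their recycling enzymes, which work beside glutathione in removing peroxide, was 1046, 1035 and 1230 FPKM over 42 genes, below all controls (1612 to 1831 FPKM). Its most abundant gene, the ascorbate peroxidase Lalb_Chr03g0027041, stood at 755, 572 and 617 FPKM in the controls and 264, 301 and 314 at 20 min (log2 fold change -1.04, SE 0.22; edgeR adjusted p = 0.162). For the supply of cysteine, the most abundant gene was the cysteine synthase Lalb_Chr03g0037851, at 476, 431 and 389 FPKM in the controls and 168, 302 and 201 at 20 min (log2 fold change -0.85, SE 0.26; edgeR adjusted p = 0.261). For glutathione itself, the glutamate-cysteine ligase Lalb_Chr05g0224791, the first enzyme of its synthesis, stood at 88.8, 99.9 and 66.3 FPKM in the controls and 71.0, 23.1 and 94.7 at 20 min, with overlap (log2 fold change -0.35, SE 0.53; edgeR adjusted p = 0.818).

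For the other lists the first value has all libraries and the second leaves out the 2. The medians at 80 min were -0.15 and 0.02 over 4 genes of glutathione synthesis, and 0.06 and -0.08 over 12 of its breakdown, so that both signs turned. They were -0.17 and -0.27 over 12 glyoxalases and formaldehyde enzymes, -0.12 and -0.22 over 38 genes of ascorbate recycling, and -0.10 and -0.38 over 32 of sulfate assimilation and cysteine synthesis. The S-(hydroxymethyl)glutathione dehydrogenase Lalb_Chr20g0113461, which removes formaldehyde bound to glutathione, ran from 65.0 to 105 FPKM over all 12 plants. The glutathione peroxidase Lalb_Chr16g0377111 ran from 114 to 242 FPKM. The gamma-glutamylcyclotransferase Lalb_Chr08g0243481, which breaks glutathione down, stood at 80.5, 14.6 and 82.6 FPKM at 20 min against 24.5 to 31.7 in the controls. At 40 and 80 min it ran from 18.8 to 42.5 FPKM. Replicates 1 and 3 at 20 min thus lay far above all other plants, and replicate 2 was the lowest.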

How the data were processed

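RNA was measured in 12 libraries of white lupin root sections, 3 plants in each of 4 groups, grouped by the labels' titles. The deposited table gives, per the file headers, whole read counts per gene and library that were not normalized. It also gives the authors' FPKM values, used here for levels, and the authors' DESeq2 log2 fold changes over control with adjusted p-values. The submitters' processing notes list bcl2fastq 2.20, FastQC, Trimmomatic 0.32, HISAT2, StringTie and DESeq2. No coordinates are printed because the genome build is not given in the sources used here. The same holds for the strand setting and for how reads matching several genes were handled. NCBI's gene table of the assembly CNRS_Lalb_1.0 served for neighbours only, and 33388 of 33388 identifiers and 48 of 48 members matched it.

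The counts were tested with edgeR 4.0.16 (R 4.3.3) after filterByExpr, TMM scaling and a robust fit of the 4 groups over the 12 libraries (glmQLFit, glmQLFTest), which leaves 8 residual degrees of freedom. Benjamini-Hochberg adjustment ran over the 28980 genes that passed the filter, and a call means an adjusted p below 0.05. The common dispersion was 0.449. The SE of a log2 fold change is its size divided by the square root of F. Whether groups overlap was counted on TMM-scaled CPM. DESeq2 1.42.0 was the second test, and its missing adjusted p-values were left missing. The code of the fit was run on simulated data with a dispersion of 0.05, below the 0.449 found here. That run does not show how the fit performs at the spread of these plants. Alternatives were DESeq2's size factors, no filter, a replicate block, only the groups compared, each library left out, and 20 min replicate 2 with 80 min replicate 3 left out together.

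Replicate numbers are not stated to pair plants. The deviations of same-numbered plants correlated above 0.1 in 5 of 18 pairs (range -0.271 to 0.203), so the numbers were not taken to pair them. Named members were the 10 most abundant, at each time against control the 3 with the smallest p in each direction with all libraries and without the pair left out, the 3 with the smallest p in the other comparisons, and the 3 most abundant of the largest group of neighbours. Lalb_Chr09g0333351, Lalb_Chr11g0066191, Lalb_Chr25g0285291 and Lalb_Chr03g0031491 were named after their values were seen. Other lists are named by their most abundant gene. The name search for cyclin B of dividing cells found only 2 calcyclin-binding proteins and was not used, and the low-oxygen search also found cinnamyl-alcohol dehydrogenases, so it is given by gene name. The members, lists, alternatives and rules were chosen with earlier results of these data known. All per-sample columns were used (0 were not).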

Additional observations from a re-analysis of the deposited data

How the results depend on the processing

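With all 12 libraries edgeR called 0 members in each of the 7 comparisons. It also called 0 with DESeq2-type size factors, with no filter on low counts, with the groups compared alone and with a replicate block. The block treats same-numbered plants as matched, which the labels do not state. Of the 12 libraries, 4 correlated best with their own number. DESeq2 called 4, 1 and 4 members at 20, 40 and 80 min against control, 10 in the F test, and 6, 6 and 2 for 40 against 20, 80 against 20 and 80 against 40 min. Without 20 min replicate 2 and 80 min replicate 3 together, edgeR called 6, 1 and 5, then 15 in the F test, then 10, 14 and 3. With 1 library left out at a time the counts ranged from 0 to 3 at 20 min, 0 to 1 at 40 min, 0 to 2 at 80 min, 0 to 3 in the F test, 0 to 3 for 40 against 20 min, 0 to 13 for 80 against 20 min, and 0 to 0 for 80 against 40 min. Counts above 0 came only without 20 min replicate 2 (3 at 20 min, 1 at 40 min, 3 in the F test, 3 for 40 against 20 min and 3 for 80 against 20 min) or without 80 min replicate 3 (2 at 80 min and 13 for 80 against 20 min). For the 8 glutathione lists, where edgeR called 0, DESeq2 called 11, 2 and 5 genes against control and 17 in the F test. Of all genes it called 4.09%, 1.93%, 2.97% and 8.02%. Without the 2 libraries edgeR called 20, 1 and 9 of the 177 list genes tested, and 32 in the F test. The shares of all genes were then 8.16%, 0.846%, 5.54% and 15.2%. With 1 library left out the counts ranged from 0 to 15, 0 to 1, 0 to 5 and 0 to 13. No share of all genes is given for fits with 1 library left out, so those counts cannot be set against it. The cause of these differences was not tested. Of 1402 log2 fold changes of the 26 named members tested, taken over all alternatives, 48 had another sign than with all libraries, none of them called, and 26 were called under an alternative only. The median of the members at 80 min stayed below 0 under every alternative. At 20 min its sign changed without 20 min replicate 1 (0.05) and without control replicate 3 (0.16). Genes with few reads, such as Lalb_Chr19g0133521, give fold changes that depend on single plants.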
